A study of Rattus norvegicus with 10 samples.

Results

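The circadian clock genes measured here are Npas2, Clock, Bmal1, Per1, Per2, Cry1, Nr1d1, Nr1d2, Dbp and Nfil3. They were found as the probe sets whose only gene symbol in the platform annotation was one of these names, which gave 16 probe sets of 31042 and 10 genes of 14217. The samples were nasal transitional epithelium of male F344/N rats, cut out by laser capture microdissection, 1 array per numbered animal. In the DMPT group, 5 rats received N,N-dimethyl-p-toluidine, an aromatic amine used to accelerate the setting of acrylic cements, at 120 mg/kg/day by gavage for 5 consecutive days. In the vehicle group, 5 rats received the same corn oil alone, and all animals were 5 to 6 weeks old at the start. The animals were housed in pairs; the sources used here name neither the cage partners nor the time of day at which tissue was collected.

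The clock is a feedback loop that runs in nearly every cell. CLOCK or its relative NPAS2 pairs with BMAL1 and switches on genes through E-box sequences, among them the Per and Cry genes, whose proteins then shut the pair down. The same pair switches on Nr1d1 and Nr1d2, which encode the receptors REV-ERB alpha and beta, and these repress Bmal1, Npas2, Nfil3 and other genes through a hexamer that they share with the activating ROR receptors. DBP activates and NFIL3 represses genes through a common sequence, the D-box, and so carry the rhythm to downstream genes.

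Sequence around the transcription start is shown for 4 members, chosen because Npas2 had the largest difference and the other sequences carry an E-box, the hexamer or a D-box as described above. RefSeq sequences of 250 bases before to 50 after the start (build GRCr8) were matched by symbol for 9 of the 10 members, Cry1 being the exception, with 11 starts in all. They were searched on both strands for CACGTG (E-box), TTANGTAA (D-box), AGGTCA and GGGTCA, and capitals mark the matches, which do not overlap one another. All are written 5′ to 3′ on the strand of the gene. The Npas2 sequence is chr9:48959315-48959614 (plus strand), that of Nr1d1 is chr10:84229405-84229704 (minus strand, 1 of 2 starts), that of Bmal1 is chr1:176766078-176766377 (plus strand) and that of Per2 is chr9:99496944-99497243 (minus strand).
Npas2: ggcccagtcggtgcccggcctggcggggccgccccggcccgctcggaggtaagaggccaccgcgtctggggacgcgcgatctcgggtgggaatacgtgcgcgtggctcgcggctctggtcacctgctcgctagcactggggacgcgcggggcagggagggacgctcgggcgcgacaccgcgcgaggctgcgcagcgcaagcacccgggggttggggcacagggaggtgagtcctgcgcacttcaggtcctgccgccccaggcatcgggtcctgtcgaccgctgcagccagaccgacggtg
Nr1d1: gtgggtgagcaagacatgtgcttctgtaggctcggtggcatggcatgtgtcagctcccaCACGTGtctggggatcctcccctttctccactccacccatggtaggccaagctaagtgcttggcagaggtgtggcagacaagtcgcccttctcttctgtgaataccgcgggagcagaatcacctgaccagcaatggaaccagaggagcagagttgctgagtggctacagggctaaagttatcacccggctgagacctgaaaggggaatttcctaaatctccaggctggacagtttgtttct
Bmal1: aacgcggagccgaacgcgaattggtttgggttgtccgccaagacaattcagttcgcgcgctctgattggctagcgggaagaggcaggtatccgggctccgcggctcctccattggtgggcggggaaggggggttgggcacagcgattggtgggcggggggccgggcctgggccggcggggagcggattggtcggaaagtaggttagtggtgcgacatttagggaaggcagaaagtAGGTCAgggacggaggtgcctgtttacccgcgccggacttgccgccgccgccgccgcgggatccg
Per2: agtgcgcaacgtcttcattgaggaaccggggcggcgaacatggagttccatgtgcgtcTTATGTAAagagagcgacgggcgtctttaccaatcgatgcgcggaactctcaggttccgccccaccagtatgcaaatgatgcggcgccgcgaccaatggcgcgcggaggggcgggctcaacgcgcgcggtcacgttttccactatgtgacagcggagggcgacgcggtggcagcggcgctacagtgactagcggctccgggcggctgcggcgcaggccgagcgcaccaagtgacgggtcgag

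Counted from the start site, the E-box of Nr1d1 begins at base -191, the AGGTCA of Bmal1 at base -15 and the D-box of Per2 at base -192. Nr1d2 holds AGGTCA from base -187 and GGGTCA from base 13. None of the searched letters was found in these windows for Npas2, Clock, Per1, Dbp or Nfil3, or at the other start of Nr1d1. The windows of Npas2 and Per1 lie inside the annotated genes, and the sequence before the annotated beginning of either gene was not searched. The Nr1d1 window that holds the E-box and a Clock window also lie inside their genes. The other window of Nr1d1 and of Clock spans the annotated beginning. Of 33469 promoter windows in the same table, 6.42% hold the E-box, 2.24% the D-box, 16.2% AGGTCA and 13.8% GGGTCA. These matches describe letters only.

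Expression was measured as log2 values that the authors made with RMA (robust multi-array average), so a difference of 1 is a 2-fold change. The arrays had medians between 8.21 and 8.35 and lower quartiles between 6.37 and 6.51, and their number limits the precision. All 9 measured epithelial markers, among them Epcam, Cdh1 and Krt5, lay above the median level of all probe sets. Vehicle replicate 2 stood apart from its group, at a root mean square distance of 0.491 log2 units from the mean of the other vehicle arrays, where each of the others lay between 0.282 and 0.308. Without it the members still counted 3 lower and 1 higher, with differences of -2.11 for Npas2, -0.64 for Per1, -0.85 for Nr1d1 and 1.12 for Nfil3. The other cell types of the captured tissue also differed between the groups, counted at an adjusted limma p under 0.05: 4 of 5 measured ciliated cell genes and 5 of 11 secretory and gland cell genes were lower after DMPT and 0 were higher, 6 of 9 endothelial genes were higher and 0 lower, and 10 of 10 genes of dividing cells were higher. Of 9 genes of olfactory neurons and sustentacular cells, 4 were lower: Sec14l3 (-1.46), Cyp2g1 (-1.06), Gap43 (-0.79) and Cyp2a3 (-0.50). In the same list 1 was higher, Adcy3 (0.52). Omp (0.19), Cnga2 (0.15), Ncam1 (0.18) and Gng13 (-0.041) did not pass. Higher were also 3 of 11 leukocyte genes and 3 of the 9 epithelial genes, Krt5, Krt7 and Krt8, with 0 lower in both lists, and 0 passed of 10 stroma genes and of 9 genes of muscle, cartilage and erythrocytes. Over all genes, 7.13% were higher and 6.77% lower. The mean level of the ciliated list ran from 9.50 to 11.2 in DMPT arrays and from 10.9 to 12.1 in vehicle arrays, and that of the dividing cell list from 10.3 to 10.5 in DMPT arrays and from 8.86 to 9.77 in vehicle arrays. The endothelial list ran from 7.26 to 8.48 in DMPT arrays and from 6.20 to 7.40 in vehicle arrays, and the secretory list from 9.60 to 10.7 in DMPT arrays and from 10.0 to 10.7 in vehicle arrays. The olfactory and sustentacular list ran from 8.74 to 9.27 in DMPT arrays and from 9.08 to 9.43 in vehicle arrays, and the leukocyte list from 8.11 to 8.42 in DMPT arrays and from 7.91 to 8.23 in vehicle arrays. Their part in the differences below was not tested, and in tissue of mixed cells fewer cells of a type and less RNA per cell cannot be told apart.

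After DMPT, transcripts of the activator Npas2, the repressor Per1 and the receptor Nr1d1 were lower, and that of the D-box repressor Nfil3 was higher. The other 6 members, Clock, Bmal1, Per2, Cry1, Nr1d2 and Dbp, did not pass the test. A gene was called when its two-sided limma p was under 0.05 after Benjamini-Hochberg adjustment, made across the whole set of 31042 probe sets. Of the 10 members, each taken by its probe set of highest mean, 3 were lower and 1 was higher. Over all genes, 13.9% were called, 6.77% lower and 7.13% higher. The groups did not overlap for 3 members, Npas2, Nr1d1 and Nfil3, against 13.9% of all genes. The median difference of the members was 0.019, that of all genes -0.0052. In the core loop, 2 of 6 activators and repressors were lower and 0 higher (median -0.058), of the REV-ERB receptors 1 of 2 was lower, and of the output factors 1 of 2 was higher.

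**Figure D1:**
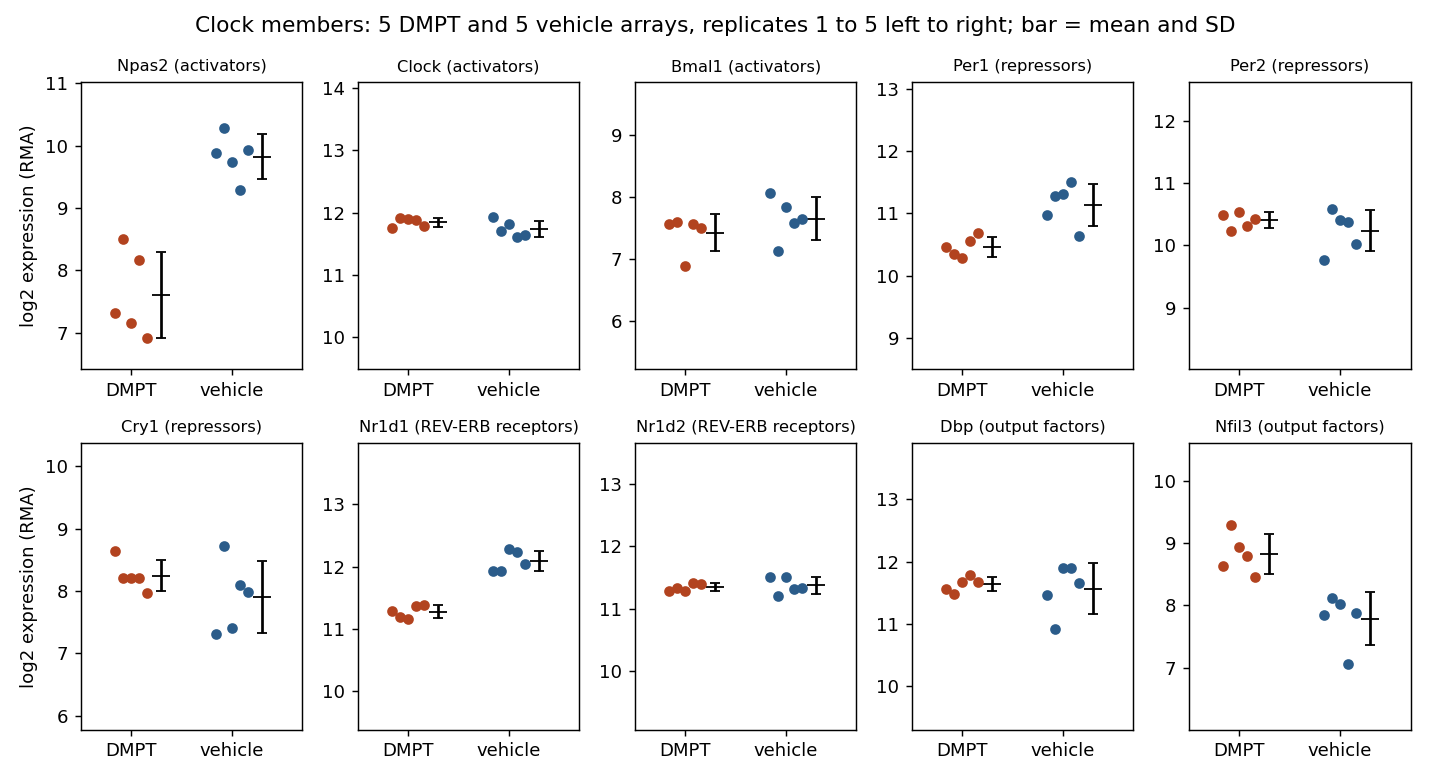
Log2 expression of the 10 members on each array, by the probe set of highest mean; points are the 5 DMPT arrays (left) and the 5 vehicle arrays (right) in replicate order, bars the mean and SD, and every panel spans the same number of log2 units. The Npas2, Nr1d1 and Nfil3 groups do not overlap, and those of Per1 overlap through vehicle replicate 5 at 10.64 and DMPT replicate 5 at 10.68.

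Npas2 (probe set 1383439_at) encodes the paralog of CLOCK and had the largest difference of the members. Its log2 values were 7.31, 8.51, 7.15, 8.16 and 6.91 in DMPT replicates 1 to 5, against 9.88, 10.28, 9.75, 9.30 and 9.94 in vehicle replicates 1 to 5. Every DMPT array was below every vehicle array, and the DMPT arrays were spread more widely, with an SD of 0.69 in DMPT arrays and 0.36 in vehicle arrays (n = 5 each). The difference was -2.22 ± 0.30 (± SE from the limma fit, as for all single genes), a 4.65-fold fall (adjusted p = 0.000774). Among 14217 genes it ranked 11 by the size of the fall and 227 by p. DMPT replicates 2 and 4 had the highest Npas2 values of their group, and without each array in turn the difference ran from -2.44 to -2.04.

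Clock, which encodes the activator that NPAS2 can replace, has 4 probe sets. That of highest mean (1390199_at) had 11.75, 11.91, 11.90, 11.88 and 11.78 in DMPT replicates 1 to 5, against 11.93, 11.70, 11.81, 11.61 and 11.64 in vehicle replicates 1 to 5. The groups overlapped, and the difference was 0.11 ± 0.088 with a 95% interval from -0.086 to 0.30 (adjusted p = 0.517). The other Clock probe sets differed by -0.28, -0.0063 and 0.20, of which 0 passed. Their directions disagree, and the interval of the -0.28 probe set ran from -0.55 to -0.014.

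Bmal1 (1370510_a_at), the shared partner of CLOCK and NPAS2, ran from 6.90 to 7.60 in DMPT arrays and from 7.13 to 8.06 in vehicle arrays. Its difference was -0.22 ± 0.18, with an interval from -0.62 to 0.18 (adjusted p = 0.516). DMPT replicate 3 was the low array at 6.90, and without it the difference was -0.090. Omission of vehicle replicate 1 gave -0.12. Omission of vehicle replicate 2 gave -0.35 (adjusted p = 0.189). A fall as large as that of Npas2 lies outside the intervals of both Clock and Bmal1.

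Of the repressors, Per1 (1374855_at) fell. This gene encodes the PERIOD protein whose transcript also answers quickly to hormonal and cAMP signals. Its values were 10.46, 10.35, 10.27, 10.55 and 10.68 in DMPT replicates 1 to 5, against 10.97, 11.27, 11.31, 11.50 and 10.64 in vehicle replicates 1 to 5. Vehicle replicate 5 was low for its group and fell among the DMPT arrays. The difference was -0.67 ± 0.15, a 1.60-fold fall (adjusted p = 0.0166). It stayed under the threshold without each array in turn, with an adjusted p of up to 0.0483.

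Per2 and Cry1, which encode the other repressors measured, did not pass. Per2 (1368303_at) ran from 10.23 to 10.54 in DMPT arrays and from 9.77 to 10.58 in vehicle arrays, with a difference of 0.17 ± 0.15 (interval -0.16 to 0.49, adjusted p = 0.558). Omission of vehicle replicate 1 gave 0.049, and that of vehicle replicate 2 gave 0.25. Its second probe set differed by 0.016. Cry1 (1392640_at) ran from 7.97 to 8.65 in DMPT arrays and from 7.31 to 8.73 in vehicle arrays. Its difference was 0.34 ± 0.24 (interval -0.18 to 0.87, adjusted p = 0.432). The highest Cry1 value, 8.73, was that of vehicle replicate 2, and without this array the difference was 0.55 (adjusted p = 0.0820). Omission of vehicle replicate 1 gave 0.20, and that of vehicle replicate 3 gave 0.22.

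Nr1d1 (1370816_at) had the smallest p of the members. Its values were 11.28, 11.18, 11.16, 11.37 and 11.39 in DMPT replicates 1 to 5, against 11.93, 11.93, 12.28, 12.24 and 12.05 in vehicle replicates 1 to 5. The groups were clearly apart and each was tight, with an SD of 0.10 after DMPT and 0.17 with vehicle. The difference was -0.81 ± 0.10, a 1.75-fold fall (adjusted p = 0.000488), and it ran from -0.85 to -0.76 without each array in turn.

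In the RefSeq table the Nr1d1 gene overlaps Thra, the gene of thyroid hormone receptor alpha, which lies on the other strand. Thra (1367726_at) had 8.51, 8.57, 8.35, 8.73 and 8.62 in DMPT replicates 1 to 5, against 8.98, 9.03, 9.39, 9.46 and 9.21 in vehicle replicates 1 to 5. These groups did not overlap either, and the difference was -0.66 ± 0.12 (adjusted p = 0.00442). A second Thra probe set was also lower, at -0.38 (adjusted p = 0.0153), and its groups did not overlap. The remaining one, at 3.02 after DMPT and 3.01 with vehicle, was far below the lower quartile of the arrays. The sources used here do not say whether labelling kept the strand, so the Nr1d1 and Thra values are not certain to be separate. Npas2, Clock, Per2 and Cry1 also overlap other annotated genes, and whether their values are separate was not examined.

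Thra was also among the 5 genes whose values followed those of Nr1d1 most closely over the 10 arrays, once each group's mean was taken away. Among 9015 genes above the median level, Pearson's r was 0.919 for Aven, 0.918 for Bach1, 0.913 for Thra, 0.901 for Myof and 0.886 for Gpank1. These are the highest of 9015 values over few arrays that share 1 normalization, and are given as a description. Their group differences were unlike, from -0.66 for Thra to 0.67 for Bach1.

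Nr1d2, the REV-ERB beta gene, has 3 probe sets that all lay close to 0. That of highest mean (1390430_at) ran from 11.28 to 11.42 in DMPT arrays and from 11.21 to 11.51 in vehicle arrays. Its difference was -0.032 ± 0.088, with an interval from -0.22 to 0.16 (adjusted p = 0.874). The other probe sets differed by -0.056 and 0.095. A fall of the size of Nr1d1 lies outside the interval.

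Nfil3 (1368488_at), the gene of the D-box repressor, was the member that rose. It had 8.63, 9.30, 8.94, 8.80 and 8.45 in DMPT replicates 1 to 5, against 7.85, 8.13, 8.02, 7.07 and 7.88 in vehicle replicates 1 to 5. Every DMPT array was above every vehicle array, and vehicle replicate 4 was low at 7.07. The difference was 1.03 ± 0.21, a 2.04-fold rise (adjusted p = 0.00886), and it was 0.85 without vehicle replicate 4.

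Dbp (1387874_at), the gene of the D-box activator and a strongly rhythmic E-box target in other tissues, had 11.56, 11.48, 11.67, 11.79 and 11.68 in DMPT replicates 1 to 5. In vehicle replicates 1 to 5 it had 11.46, 10.92, 11.89, 11.90 and 11.66. The vehicle arrays were more spread (SD 0.12 after DMPT and 0.41 with vehicle), and vehicle replicate 2 was the lowest of all 10. The difference was 0.070 ± 0.17, with an interval from -0.30 to 0.44 (adjusted p = 0.858). Omission of vehicle replicate 2 gave -0.093.

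**Figure D2:**
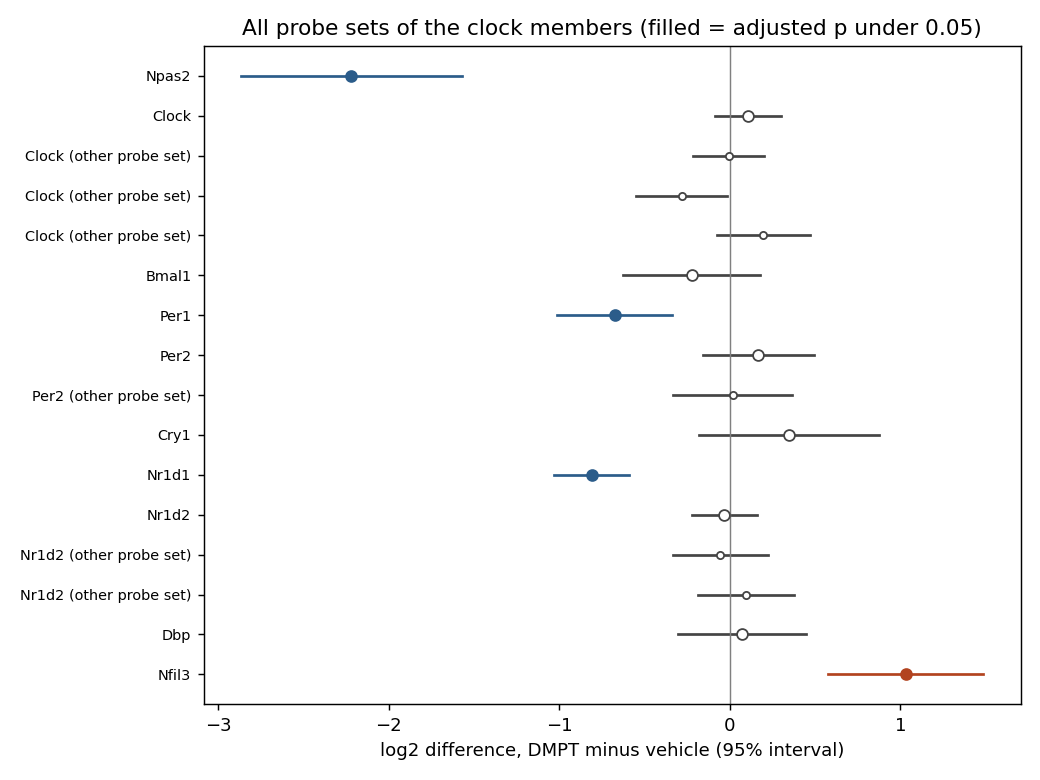
Log2 difference, DMPT minus vehicle, of all 16 probe sets of the members, with 95% intervals from the limma fit; larger points are the probe sets of highest mean and filled points passed the threshold. Npas2 at -2.22, Nr1d1 at -0.81 and Per1 at -0.67 lie left of 0 and Nfil3 at 1.03 right of it.

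**Figure D3:**
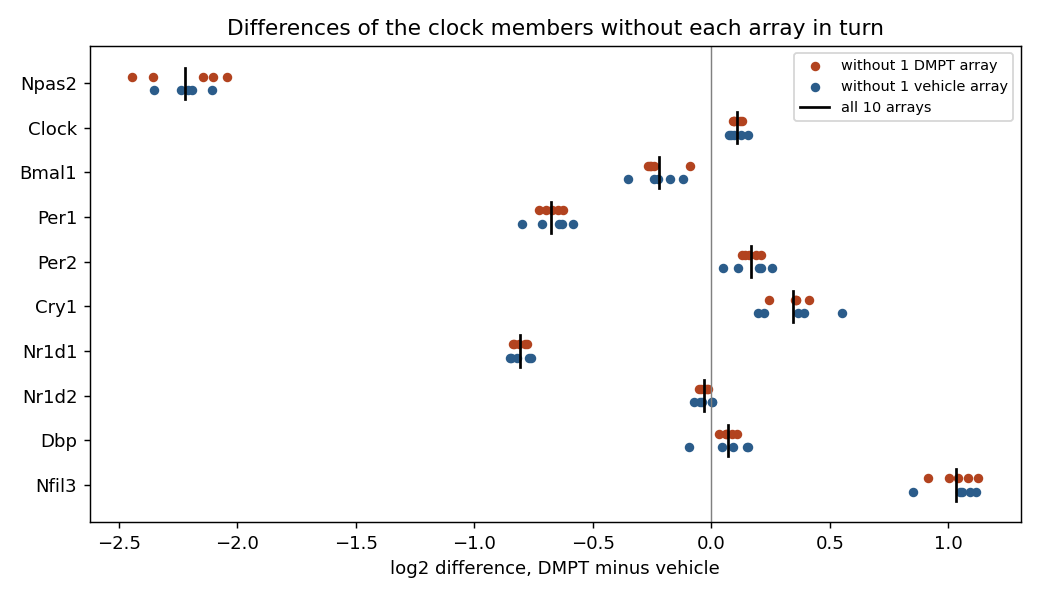
Log2 difference of each member without each of the 10 arrays in turn, DMPT arrays left out in the upper row and vehicle arrays in the lower row of points; the line is the value with all arrays. Npas2, Per1, Nr1d1 and Nfil3 keep their side of 0 throughout. Dbp crosses it without vehicle replicate 2, and Nr1d2 crosses it slightly without vehicle replicate 1 or 3.

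Members were set against each other on the same array in 4 pairs, chosen with their values known: 3 of paralogs, and Nfil3 with Dbp, which act in opposite ways on the same sequence. For each pair the log2 value of the second gene was subtracted from that of the first, which shows unequal change and not that one of them was constant. Npas2 minus Clock averaged -4.23 ± 0.65 after DMPT and -1.91 ± 0.35 with vehicle (SD, n = 5 each), a difference of -2.33 ± 0.33 (for pairs, ± SE from the spread of the 5 arrays of each group, not from limma; two-sided exact permutation p = 0.00794, 0.0106 adjusted over the 4 pairs). Nr1d1 minus Nr1d2 averaged -0.067 ± 0.065 after DMPT and 0.71 ± 0.18 with vehicle, a difference of -0.78 ± 0.086 with the same exact p. Per1 minus Per2 averaged 0.067 ± 0.22 after DMPT and 0.91 ± 0.26 with vehicle, a difference of -0.84 ± 0.15, also with the same exact p. In these 3 pairs the groups did not overlap, and 0.00794 is the smallest p that 5 against 5 arrays can give. When the pairs were chosen, the groups of Npas2, Nr1d1 and Nfil3 were already apart and Per1 was already called lower. The pair p-values are therefore not independent of the calls of the single genes. Nfil3 minus Dbp averaged -2.82 ± 0.39 after DMPT and -3.78 ± 0.73 with vehicle, a difference of 0.96 ± 0.37 (exact permutation p = 0.0317, adjusted 0.0317), and these groups overlapped. Without each array in turn that difference ran from 0.70 to 1.21.

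**Figure D4:**
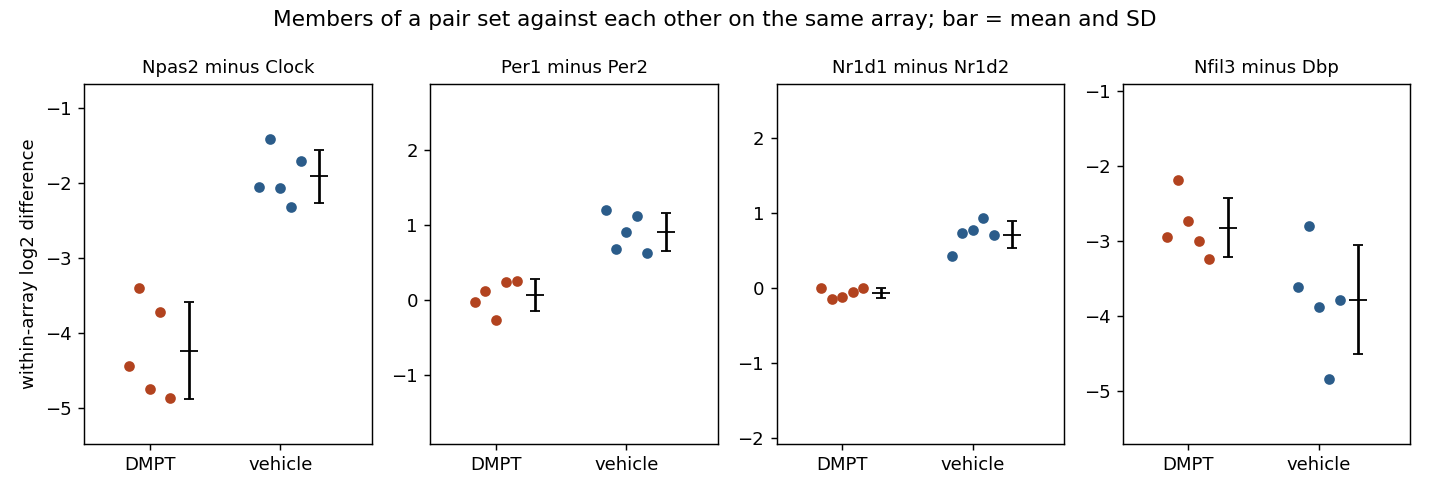
Within-array log2 difference between the 2 members of each pair, for the 5 DMPT arrays (left) and the 5 vehicle arrays (right), with the mean and SD. The groups are apart for Npas2 minus Clock, Per1 minus Per2 and Nr1d1 minus Nr1d2, and overlap for Nfil3 minus Dbp.

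Among other genes of the clock, few passed the test. Of 36 listed genes 31 were measured, and 3 were higher and 2 lower, with a median difference of 0.054. That is 9.68% higher and 6.45% lower, near the 7.13% and 6.77% of all genes. Timeless, a partner of PER proteins in some reports that also acts at replication forks, rose by 0.92 ± 0.17 (adjusted p = 0.00482); the 10 dividing cell genes were also higher, and their part in this rise was not tested. Nampt, the clock-controlled enzyme of NAD synthesis, rose by 0.75 ± 0.14 (adjusted p = 0.00588), and its second probe set rose by 1.26 (adjusted p = 0.00134). Klf10, a clock-controlled zinc finger factor, rose by 0.42 ± 0.095 (adjusted p = 0.0164).

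The genes that were lower act on clock proteins. Usp2, which encodes a deubiquitinase of PER1 and BMAL1, fell by 0.71 ± 0.20 (adjusted p = 0.0382). Csnk1e, the casein kinase that marks PER proteins for breakdown, fell by 0.34 ± 0.088 (adjusted p = 0.0282). Both calls were fragile. That of Usp2 was lost without DMPT replicates 2, 3, 4 or 5 or vehicle replicates 2, 4 or 5, with an adjusted p of up to 0.0849. That of Csnk1e was lost without DMPT replicates 1, 2, 3 or 4 or vehicle replicates 3 or 4 (up to 0.0686), with an RNA quality ratio, the 3′ minus 5′ signal of control transcripts, as a covariate (0.0834, at a difference of -0.34), and when its 3 probe sets were averaged (0.218).

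Rora, which encodes a ROR receptor that activates through the hexamer where REV-ERB represses, differed by -0.46 ± 0.14 and missed the threshold (adjusted p = 0.0631). Its values lay between 9.31 and 9.78 in DMPT arrays and between 9.49 and 10.14 in vehicle arrays. A second, dimmer probe set of Rora fell by 0.99 (adjusted p = 0.000746). Vehicle replicate 2 was low at 9.49, and without it the difference of the first probe set was -0.58 (adjusted p = 0.00539). Without each of the other arrays it missed the threshold (adjusted p of up to 0.145). It passed with array weights (-0.58, adjusted p = 0.00601) and with the RNA ratio (-0.61, adjusted p = 0.0379). The mean of the Rora probe sets also passed (-0.72, adjusted p = 0.00390). The other limma alternatives left the first probe set over the threshold, with an adjusted p of up to 0.106. Bmal2, the Bmal1 paralog, differed by 0.59 ± 0.18 (adjusted p = 0.0517) at a level below the lower quartile of the arrays after DMPT (6.22) and with vehicle (5.62). Without DMPT replicate 2 the difference was 0.75 (adjusted p = 0.00758), without DMPT replicate 4 it was 0.49 (adjusted p = 0.118), and with the RNA ratio it was 0.35 (adjusted p = 0.252). Bmal2 passed narrowly with arrays centred on their median (adjusted p = 0.0400) and with the replicate block (adjusted p = 0.0461). It also passed when quantile normalized again (0.0483), with another variance model (0.0481) and with genes as probe set means (0.0482). With array weights it missed (adjusted p = 0.0760). Wee1, a clock-controlled mitotic kinase gene, differed by 0.59 ± 0.20 (adjusted p = 0.0781), and its second probe set rose by 0.45 (adjusted p = 0.0389). The first differed by 0.74 without vehicle replicate 3 (adjusted p = 0.0206), by 0.42 without vehicle replicate 2 (adjusted p = 0.0841) and by 0.47 with the RNA ratio (adjusted p = 0.281). It passed with the replicate block (0.59, adjusted p = 0.0247) and missed with array weights (0.41, adjusted p = 0.115). The mean of the Wee1 probe sets passed (0.52, adjusted p = 0.0116). The dividing cell genes were also higher, and their part in the Wee1 difference was not tested.

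The paralogs of members were named after their values were seen. Per3 differed by 0.15 and Cry2 by 0.21, and the DBP relatives Tef and Hlf differed by 0.063 and -0.15. None of these 4 passed by the probe set of highest mean (adjusted p = 0.498, 0.406, 0.794 and 0.530 in limma; 0 also had an unadjusted p under 0.05). A second Cry2 probe set differed by 0.31 (adjusted p = 0.0559).

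**Figure D5:**
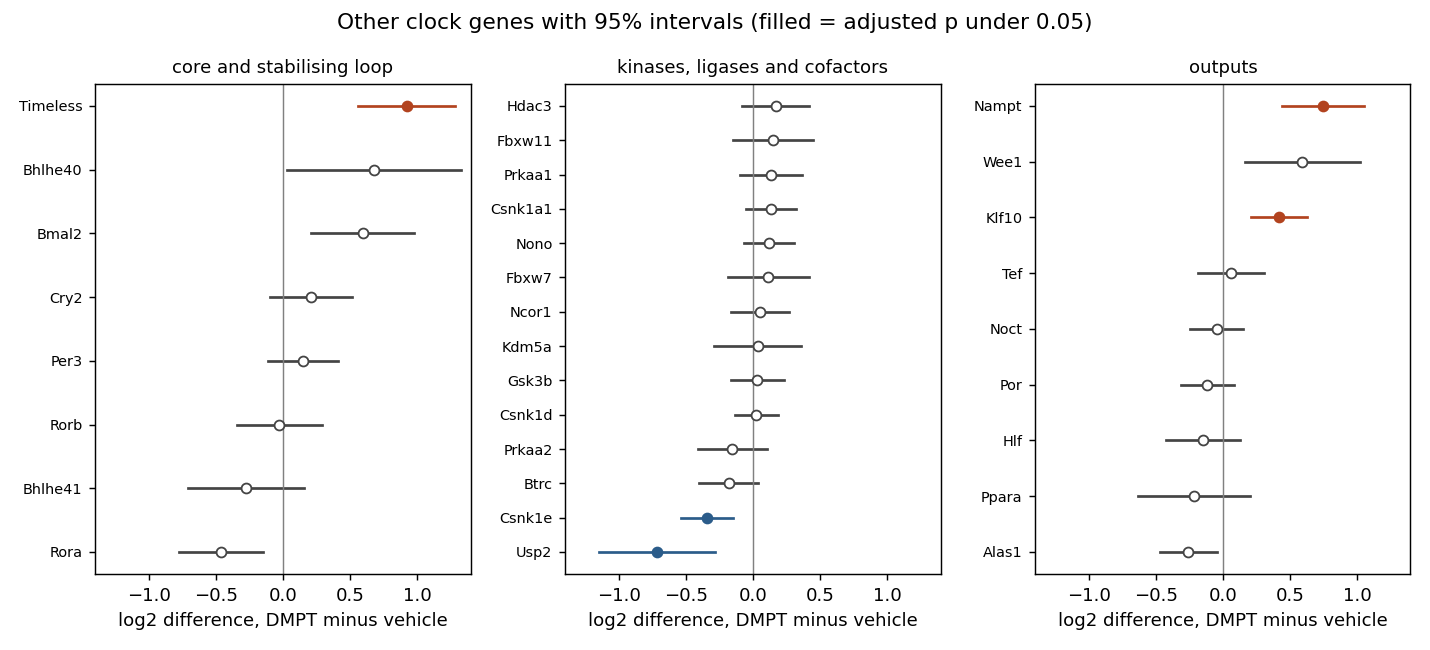
Log2 difference, DMPT minus vehicle, of the 31 measured genes of the 3 other clock lists, with 95% intervals; filled points passed the threshold. Timeless, Nampt and Klf10 lie right of 0 and Usp2 and Csnk1e left of it.

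Signals known to set clocks in peripheral tissue, glucocorticoid hormone and cAMP or serum factors, were followed through 21 measured target genes, of which 4 were higher and 1 lower (median 0.19). That is 19.0% higher and 4.76% lower, against 7.13% and 6.77% of all genes. Egr1, an immediate early factor, had the largest rise, at 2.20 ± 0.33 (adjusted p = 0.00174), and Fos rose by 0.72 ± 0.16 (adjusted p = 0.0162). A second Fos probe set differed by 0.074 (adjusted p = 0.745), and the mean of both rose by 0.40 (adjusted p = 0.0316). The other genes of that list, 7 of 9, did not pass by the probe set of highest mean. For Crem this probe set differed by -0.052, and its other probe sets by 0.072 to 0.46. Of these, 1387714_at passed, at 0.38 (adjusted p = 0.0489), and 1369737_at, at 0.46, did not (adjusted p = 0.0750). Of 12 glucocorticoid-induced genes, Sgk1 rose by 1.10 ± 0.26 (adjusted p = 0.0184) and Ddit4 by 0.73 ± 0.14 (adjusted p = 0.00811). Fkbp5 and Tsc22d3, commonly used markers of glucocorticoid action named here after their values were seen, differed by -0.049 and -0.24 and did not pass. The lower gene was Tat at -0.56 (adjusted p = 0.0374), far below the lower quartile of the arrays, and these lists held 0 lower genes without DMPT replicates 3, 4 or 5 or vehicle replicates 1, 3 or 4. Whether these signals had a part in the member differences was not tested.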

How the data were processed

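The authors deposited RMA values on the log2 scale (per the submitters' processing notes), with 31099 rows of probe sets and 10 columns, 1 per animal; no RMA version or filter is named in the sources used here. After 57 control probe sets were set aside, 31042 were tested, and 20826 of these had 1 gene symbol in the platform annotation. A gene was represented by its probe set of highest mean over the 10 arrays.

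DMPT was compared with vehicle in R 4.3.3 by a linear model of treatment (limma 3.58.1, moderated by eBayes) of all probe sets, with two-sided p-values adjusted by Benjamini-Hochberg over all 31042 probe sets. The authors used the ORIOGEN software, per the series' design text; it was not run. The fit was tested on simulated data. Their noise was independent between probe sets, with the same spread in both groups and no distant array such as vehicle replicate 2. Alternatives were a filter on dim probe sets, scaling, variance model, array weights, an RNA quality covariate, the replicate block, probe set choice, a stricter threshold, a permutation test and the omission of each array.

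The replicate numbers of the 2 groups come from the sample titles, which do not say that a number is shared.

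The members and gene lists were chosen with earlier results of these data known. Genes named were all members, all called genes of the other clock lists or the 8 of smallest p, and the 2 of smallest p in each signal list; the 5 genes most like the member of smallest p were added. Per3, Cry2, Tef, Hlf, Fkbp5, Tsc22d3, Tat and Crem were named after their values were seen. So were the epithelial genes and the olfactory and sustentacular genes named above.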

Additional observations from a re-analysis of the deposited data

Results flagged for a closer look

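Among 56 sets of 5 arrays checked for a single distant array, 6 were flagged by the gap of the lowest array to its nearest neighbour, relative to the whole range; chance flags about 1 in 20 such sets. Vehicle replicate 2 was low for 1 of the 4 Clock probe sets, at 8.28 with the other vehicle arrays from 8.68 to 8.75. It was also low for Rora, at 9.49, and for Sgk1, at 10.1 with the others from 11.2 to 11.6. Vehicle replicate 4 was low for Nfil3, at 7.07 with the others from 7.85 to 8.13, and for Klf10, at 11.1. DMPT replicate 3 was low for Bmal1, at 6.90 with the other DMPT arrays from 7.51 to 7.60.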

How the results depend on the processing

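The 4 called members, Npas2, Per1, Nr1d1 and Nfil3, kept their direction and their call in every alternative run at the 0.05 threshold; at 0.01 Per1 was lost, leaving 2 lower and 1 higher. Without each array in turn the members stayed at 3 lower and 1 higher. The direction was not settled for 2 members that were not called: Nr1d2 was 0.0074 with arrays centred on their median and 0.0022 as the mean of its probe sets, from -0.075 to 0.0025 without each array. Dbp was -0.061 with array weights and -0.12 after adjustment for an RNA quality ratio, from -0.093 to 0.15 without each array. That ratio, the 3′ minus 5′ log2 signal of control transcripts, ran from 0.87 to 1.30 in DMPT arrays and from 1.17 to 1.50 in vehicle arrays; with it Npas2 was -1.85 and Nr1d1 -0.91. For the other clock genes, 5 were higher with the replicate block and 5 as the mean of their probe sets; 1 was lower with the replicate block, where Csnk1e stayed at -0.34 (adjusted p = 0.0759), and 0 at a threshold of 0.01, and the lower count ran from 0 to 2 without each array. For the signal targets, 2 were higher at 0.01, and 0 were lower without the dimmest 25% of probe sets, with arrays centred on their median, with the RNA ratio, with the replicate block or at 0.01; the lower count ran from 0 to 1 without each array. The call of Sgk1 was lost with the RNA ratio (0.79, adjusted p = 0.100). Over the cell type lists, 23 were higher, and 15 at 0.01. In these lists 13 were lower, 6 with the RNA ratio and 6 at 0.01, and from 7 to 13 without each array. Lower calls over all genes numbered 962, against 456 with the RNA ratio and 322 at 0.01, and from 542 to 963 without each array. Higher calls over all genes numbered 1013, and 469 at 0.01. Same-numbered arrays correlated in their deviations from the group means at r between -0.067 and 0.23, and 2 of the 5 DMPT arrays correlated best with their own number, so the numbers were not taken as pairs; the block changed no call of a member. The cause of these changes was not tested. Over all genes, higher calls made up 51.3% of calls, against 65.0% with the RNA ratio and 58.6% with arrays centred.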
